A study of Mus musculus with 6 samples.

Results

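The genes described here belong to the RING finger and tripartite motif (TRIM) families, which hold many ubiquitin ligases. They were taken as all genes whose symbol on the array is Rnf or Trim followed by a number, without a check of ligase activity. They number 123 of 18533 named genes, with 70 Rnf and 53 Trim genes measured by 134 probes, and 10 of them have more than 1 probe. Another probe that was annotated to both Trim61 and Trim60 was left out. Transcript levels were compared by 2-colour microarrays between mouse testis, mouse epididymis and SVF, the stromal vascular fraction of mouse adipose tissue, which holds the cells of fat other than adipocytes. Total RNA was compared pair by pair, with 2 arrays for each pair and Cy3 and Cy5 exchanged between them, so 6 arrays form 3 dye swaps and each tissue lies on 4 arrays. The design text names 3 RNA samples, 1 per tissue. Strain, age, treatment and the number of animals behind each RNA were not given in the sources used here.

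A RING finger is a zinc-binding fold that holds a ubiquitin-loaded E2 enzyme close to a substrate, so that ubiquitin can be passed on and the substrate degraded, moved or switched in function. TRIM proteins typically, but not always, carry a RING finger, B-box zinc fingers and a coiled coil, followed by a variable end that often binds the target. Several TRIM proteins act in antiviral defence and are induced by interferon. In the male germ line, RING and TRIM ligases take part in meiosis, in acrosome formation and in the removal of proteins as spermatids are remodelled.

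Each deposited value was taken as a log2 ratio of the Cy5 over the Cy3 tissue, and the sign of the dye-exchanged array was turned. Neither the base of the logarithm nor the direction is stated in the labels, so all folds and directions rest on this likely reading. Before turning, Pearson's r between the arrays of a pair was negative over all probes, at -0.86 for testis with SVF, -0.64 for epididymis with SVF and -0.77 for epididymis with testis. To be called, a gene needed a log2 ratio of at least 1, which is 2-fold, on each of the arrays of its pair, pointing the same way. Values are given on the first and second array, and as the mean ± SD of these 2 hybridisations. This SD leaves out differences between animals, and with 1 RNA per tissue no test between tissues was possible and no p-value is given.

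Marker genes of the labelled tissues were at their highest where the labels place them. Testis exceeded both SVF and epididymis for 9 of 10 germ cell markers, and all 9 measured markers of the epididymal duct were higher in epididymis than elsewhere. All 8 stromal markers were lower in testis than in SVF, and 6 were lower in epididymis than in SVF. The synaptonemal complex gene Sycp3 was the germ cell marker that was not called, with 0.55 and -1.02 for testis over SVF.

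Of the 123 Rnf and Trim genes, 64 (52%) were called in at least 1 comparison, against 47.1% of all named genes. In testis against SVF, 29 members (23.6%) were higher in testis, beside 20.7% of all named genes, and 16 (13%) were higher in SVF, beside 16% of all. In epididymis against SVF, 14 members (11.4%) were higher in epididymis and 9 (7.32%) in SVF, beside 10.2% and 8.68% of all named genes. In epididymis against testis, 20 members (16.3%) were higher in epididymis and 27 (22%) in testis, beside 14.3% and 18%. These shares lay near those of the whole array, so the families as a whole were not set apart by their number of calls. The median log2 ratio over the members was 0.30 for testis over SVF, 0.07 for epididymis over SVF and -0.06 for epididymis over testis, where all named genes had 0.00, 0.07 and 0.00.

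The 2 arrays of a dye swap correlated across the members with r of 0.90 for testis with SVF, 0.66 for epididymis with SVF and 0.89 for epididymis with testis, across genes, which are not independent replicates. Epididymis against SVF was the least repeatable pair. The sign differed between its arrays for 43 of 123 members, against 23 in testis against SVF and 30 in epididymis against testis. Over all 18533 named genes the counts were 5915, 4027 and 4434 in the same order, so this pair was the least repeatable across the array too. Calling from the first array alone gave 27 members higher in epididymis than in SVF in place of 14, and calling from the second alone gave 20 higher in SVF in place of 9.

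**Figure D1:**
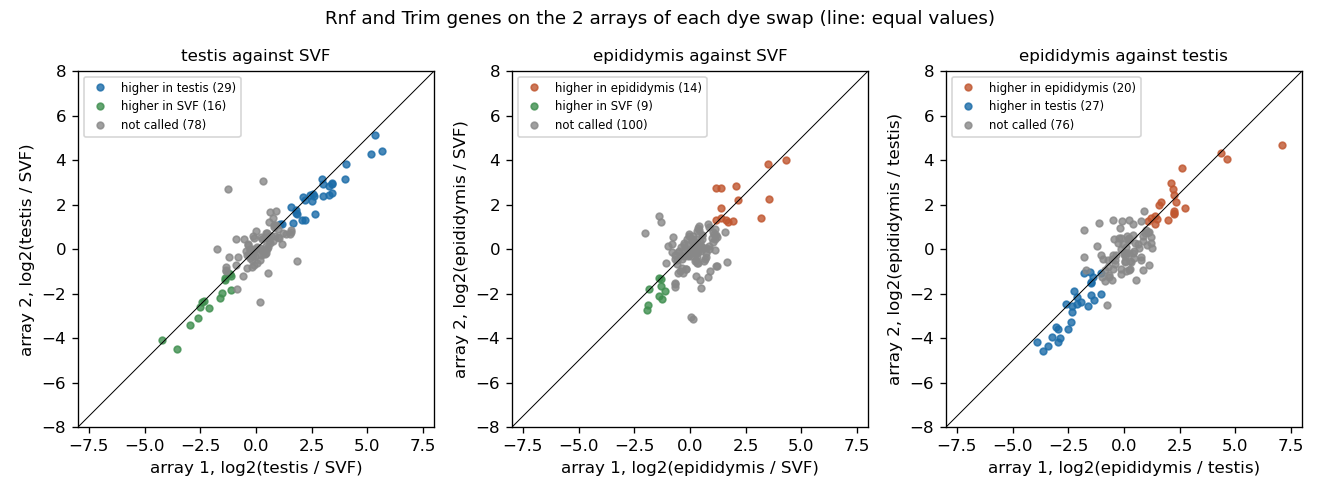
Log2 ratios of the 123 Rnf and Trim genes on array 1 (horizontal) and array 2 (vertical) of each dye swap, coloured by call, with the line of equal values. The correlation between the arrays is lowest in epididymis against SVF, and some called genes lie off the line, such as Trim2 at 7.12 and 4.68 for epididymis over testis.

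Between tissues, the members split into those highest in testis, in epididymis and in SVF. Testis exceeded both other tissues at least 2-fold for 22 members (17.9%, against 15.6% of all named genes). In epididymis this held for 8 (6.5%, against 4.34%) and in SVF for 4 (3.25%, against 6.95%). Since the RNA came from whole tissues and fractions, more cells of a type and more RNA per cell cannot be told apart in these ratios.

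**Figure D2:**
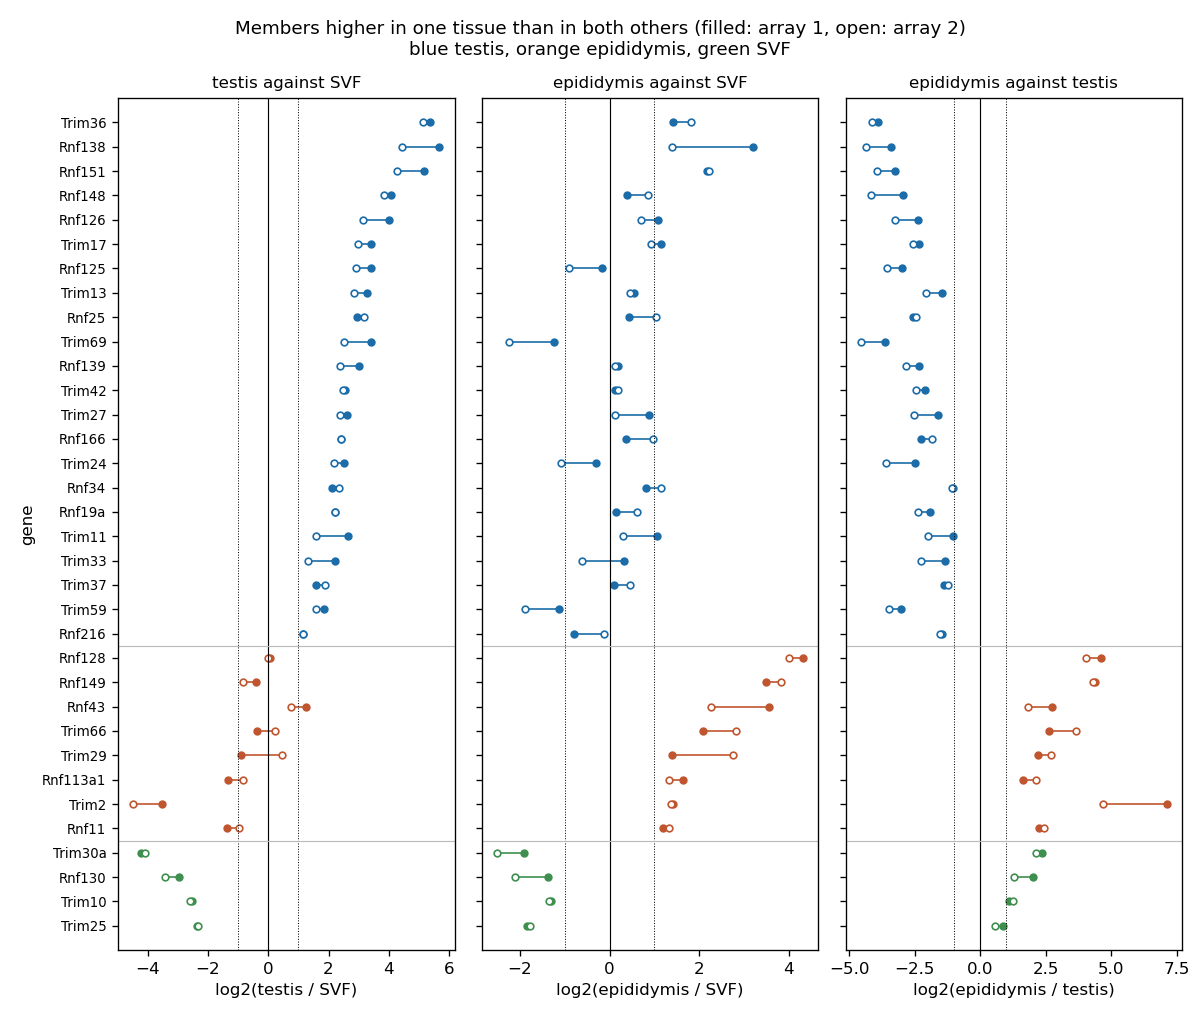
Log2 ratios in the 3 comparisons for the 34 genes at least 2-fold higher in 1 tissue than in both others, with array 1 as a filled and array 2 as an open circle, blue for testis, orange for epididymis and green for SVF. Genes are ordered within the testis and SVF groups by testis against SVF, headed by Trim36 and Trim30a, and within the epididymis group by epididymis over SVF, headed by Rnf128. Dotted lines mark 2-fold.

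The highest ratios of testis over SVF belonged to 3 genes, of which the first and the last are linked to the acrosome, the enzyme cap of the sperm head. Trim36 encodes a microtubule-binding TRIM ligase of the acrosome, and its log2 ratio of testis over SVF was 5.37 and 5.12, a 37.8-fold difference (5.24 ± 0.18). Rnf138, a ligase recruited to broken DNA ends, had 5.67 and 4.42 (5.05 ± 0.88, 33-fold). Rnf151, which has a role in acrosome formation, had 5.15 and 4.28 (4.71 ± 0.61, 26.2-fold). Their order is not resolved, because the ratios differ by less than the SD of Rnf138. All 3 were also far below testis in epididymis, with log2 ratios of epididymis over testis of -4.04 ± 0.16 for Trim36, -3.87 ± 0.68 for Rnf138 and -3.60 ± 0.50 for Rnf151. Against epididymis the largest testis difference was that of Trim69, at -4.10 ± 0.66, within an SD of the value of Trim36.

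The same 3 genes were the only ones of the 22 testis genes that were also called higher in epididymis than in SVF. Trim36 stood at 1.42 and 1.83 (1.63 ± 0.29), Rnf151 at 2.18 and 2.22 (2.20 ± 0.03) and Rnf138 at 3.20 and 1.40 (2.30 ± 1.28). SVF was thus the lowest of the 3 tissues for each of them. Germ cell markers moved with these values, since 8 of 10 were higher in epididymis than in SVF, with log2 ratios over the list from -0.23 to 2.73. The part of germ cells or sperm in the epididymal values was not tested. For Rnf138 and Rnf151 the 3 comparisons did not close exactly, with direct ratios of epididymis over SVF that were 1.12 and 1.09 above the sum of the other 2.

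Of 14 listed and measured RING and TRIM genes known from germ cells, testis exceeded SVF for 9 and SVF exceeded testis for 0. Among all named genes, 20.7% and 16% were called so. The median log2 ratio of the list was 2.35. Trim69, a TRIM ligase first described in testis, stood at 3.41 and 2.51 (2.96 ± 0.63), Rnf148 at 4.07 and 3.83 (3.95 ± 0.17) and Trim42 at 2.56 and 2.48 (2.52 ± 0.05). Trim27, a nuclear TRIM ligase of spermatogenic cells, stood at 2.61 and 2.39 (2.50 ± 0.15), and Rnf19a, the dorfin ligase, at 2.20 and 2.21 (2.21 ± 0.01). Rnf32 had 3.30 and 2.44 and was 7.32-fold higher in testis than in SVF, but its arrays of epididymis over testis gave -0.76 and -2.50, so it was not called there. Rnf17, a Tudor-domain protein of germ cell granules, was only 2.14-fold higher (1.08 and 1.11). The members of this list that were not called in testis against SVF were Rnf133, Rnf141, Rnf114, Trim60 and Trim66. Trim60 lay at -0.52 and 0.47 there, and Rnf141 just missed at 0.91 and 1.08. For epididymis over testis, Rnf141 was called lower, at -2.10 and -2.13, and Trim66 was called higher, at 2.63 and 3.66.

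Other genes highest in testis had varied roles. Rnf126, which ubiquitinates mislocalised membrane proteins in the cytosol, was 11.9-fold higher in testis than in SVF (4.01 and 3.14). Rnf125, a ligase that restrains the viral RNA sensor RIG-I, was 8.98-fold higher (3.42 and 2.92) and lies next to Rnf138 among the protein-coding genes. Trim17, known from neurons and testis, was 9.16-fold higher (3.41 and 2.98). Rnf25 was 8.31-fold higher (2.95 and 3.16). In each of these 4 genes the arrays of testis over SVF lay within 1 log2 unit, and all were higher in testis than in epididymis too, by 5.41-fold for Trim17, 5.76-fold for Rnf25, 7.09-fold for Rnf126 and 9.65-fold for Rnf125.

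Rnf166, another gene highest in testis, was 5.33-fold higher in testis than in SVF, with 2.41 and 2.42 on the arrays, and 4.17-fold higher than in epididymis. Rnf34, which acts on caspases and p53, stood at 2.12 and 2.36 against SVF, and at -1.03 and -1.07 for epididymis over testis. Trim11, which lies near Trim17, stood at 2.64 and 1.60 against SVF and at -1.52 ± 0.69 for epididymis over testis, with -1.03 on the first array. Rnf34 on both arrays and Trim11 on the first thus only just passed the threshold against epididymis. Trim37, the ligase mutated in mulibrey nanism and active at centrosomes, stood at 1.57 and 1.89 against SVF and at -1.38 and -1.24 for epididymis over testis.

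Ligases anchored in the endoplasmic reticulum differed from gene to gene. Rnf139, a sterol-sensing ligase, was 6.43-fold higher in testis than in SVF (3.00 and 2.37), and Trim13, a TRIM ligase with a membrane anchor, was 8.37-fold higher (3.29 and 2.84). Of 13 measured ligases of the endoplasmic reticulum, Golgi and lysosome, a list that holds Rnf139 but not Trim13, Rnf139 was the 1 higher in testis than in SVF and Rnf103 the 1 higher in SVF (-1.11 and -1.19). None of the 13 was called in epididymis against SVF. In epididymis against testis, 4 of them were higher in epididymis, namely Rnf5 (2.23 and 1.58), a ligase of protein quality control, Rnf180 (1.57 and 1.99), Rnf186 (1.46 ± 0.06) and Rnf145 (1.48 and 1.35). Rnf139 and Rnf182 were higher in testis there, Rnf182 with -1.78 and -1.09. The calls of Rnf180 and Rnf182 are less secure. For Rnf180 the arrays of epididymis over SVF gave 1.65 and -0.56. That mean ratio differed by -1.60 from the sum of its ratios of epididymis over testis and testis over SVF. For Rnf182 the arrays gave 0.34 and 3.07 for testis over SVF, and -1.30 and 1.22 for epididymis over SVF. Array-wide, the calls in testis against SVF made up 20.7% toward testis and 16% toward SVF. For epididymis against SVF the shares were 10.2% toward epididymis and 8.68% toward SVF. For epididymis against testis they were 14.3% toward epididymis and 18% toward testis. Whether the 13 ligases depart from these shares was not tested.

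The transcriptional cofactors of the TIF1 group, which bind chromatin and repress or support transcription, were not uniform. Trim24 was 5.06-fold higher in testis than in SVF (2.51 and 2.17) and 8.26-fold higher than in epididymis (-2.49 and -3.60 for epididymis over testis). Trim33 was 3.38-fold higher in testis than in SVF (2.21 and 1.31). Trim28, which silences retroelements, was not called in any comparison, with 0.80 and 0.99 for testis over SVF. For epididymis over testis it gave -1.78 and -0.36, past 2-fold on the first array alone. Trim66, the remaining TIF1 gene, had its highest level in epididymis: its ratio was 2.09 and 2.83 over SVF (2.46 ± 0.52) and 2.63 and 3.66 over testis (3.14 ± 0.73), while testis and SVF differed by only -0.36 and 0.23.

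RING-between-RING ligases, which take ubiquitin onto a cysteine of their own before passing it on, had 4 of 7 measured genes lower in epididymis than in testis and 1 higher, where 18% and 14.3% of all named genes were called so, and a median log2 ratio of -1.26. Rnf19b, known from natural killer cells and macrophages, had the largest difference, at -2.86 and -3.97 for epididymis over testis (-3.41 ± 0.78) and -1.93 and -2.74 for epididymis over SVF (-2.33 ± 0.57). Rnf19a (-1.93 and -2.39), Rnf216 (-1.46 and -1.53) and Rnf144a (-1.51 and -1.01) followed. Rnf31, the catalytic subunit of the complex that builds linear ubiquitin chains, went the other way, at 1.20 and 1.38. Its partners Rbck1 and Sharpin, which belong to a list of relatives, were not called in any comparison. The 2 probes of Rnf216 gave a mean of -1.13 and -1.86 for epididymis over testis, and the call rests on the second. Its call of testis over SVF rests on that probe too, with 1.44 and 1.86, where the first probe had 0.89 and 0.45.

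Epididymis was the lowest of the 3 tissues for 5 members (4.07%), against 0.928% of all named genes, a difference that was not tested. These were Rnf19b, Rnf141, Rnf144a, Trim59 and Trim69. Rnf141, a RING gene linked to spermatogenesis, stood at -1.40 and -1.29 for epididymis over SVF and -2.10 and -2.13 for epididymis over testis. Trim59, a membrane-anchored TRIM ligase, stood at -1.13 and -1.89 and at -3.04 and -3.49, and Trim69 at -1.25 and -2.25 and at -3.63 and -4.56. Trim59 and Trim69 were higher in testis than in SVF as well, so for these 2 genes the order of all 3 tissues was called.

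In another subfamily, the PA-TM ligases, a protease-associated domain faces the lumen or the outside, a transmembrane segment follows, and the RING finger faces the cytosol. The 9 members were all measured and their highest tissue differed. Sequences upstream of 4 of them are shown, because Rnf149, Rnf128 and Rnf148 lie at both ends of the range of epididymis over testis and Rnf133 is the neighbour of Rnf148. They are the 120 bases before the annotated start, from RefSeq for GRCm38.p6, 5′ to 3′ on the strand of the gene, with CpG dinucleotides in capitals. Rnf148 and Rnf133 are neighbours on chromosome 6, and Rnf149 and Rnf128 lie on chromosomes 1 and X.
Rnf148, chr6:23655137-23655256, minus strand: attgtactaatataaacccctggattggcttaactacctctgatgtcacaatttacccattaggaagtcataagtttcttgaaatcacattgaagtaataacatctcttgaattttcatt
Rnf133, chr6:23650306-23650425, minus strand: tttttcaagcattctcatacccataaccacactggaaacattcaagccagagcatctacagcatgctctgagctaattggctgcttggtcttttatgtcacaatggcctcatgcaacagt
Rnf149, chr1:39577348-39577467, minus strand: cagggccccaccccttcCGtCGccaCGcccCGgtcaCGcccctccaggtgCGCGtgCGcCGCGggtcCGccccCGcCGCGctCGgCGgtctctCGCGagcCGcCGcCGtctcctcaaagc
Rnf128, chrX:139610500-139610619, plus strand: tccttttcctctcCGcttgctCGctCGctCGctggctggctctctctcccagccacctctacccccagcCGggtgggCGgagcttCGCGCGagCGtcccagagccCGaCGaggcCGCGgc

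The stretches of Rnf148 and Rnf133 held no CpG, and those of Rnf149 and Rnf128 held 21 and 14. Over the full 250 upstream bases the counts were 0 for Rnf148, 1 for Rnf133, 29 for Rnf149 and 21 for Rnf128. Other PA-TM ligases with a promoter had 8 and 2 (Rnf43), 39 (Rnf130), 14 (Rnf13) and 21 (Rnf167). Promoters were found for 96 of the 123 members, and the CpG count of a member's richest promoter had a median of 14. All 27025 genes with a RefSeq promoter had a median of 6. That set was not limited to genes named on the array, so it is not a matched background for the members. By tissue the median was 13 for 14 members highest in testis, 18.5 for 6 highest in epididymis and 6.5 for 4 highest in SVF. Their ranges of 0 to 38, 3 to 29 and 0 to 39 overlapped widely.

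Rnf148, with the CpG-free stretch, was the PA-TM gene highest in testis, at 4.07 and 3.83 over SVF (15.5-fold) and 11.7-fold over epididymis (-2.94 and -4.16). Its neighbour Rnf133, a ligase of the spermatid endoplasmic reticulum, was not called anywhere. Rnf133 had 0.52 and 0.72 for testis over SVF, and 0.06 and -3.06 for epididymis over SVF, arrays that do not repeat each other. Rnf128, also called GRAIL and known for enforcing T cell anergy, was 17.9-fold higher in epididymis than in SVF on nearly equal arrays (4.16 ± 0.22) and 20-fold higher than in testis (4.61 and 4.03), while testis and SVF were alike within 0.05 on both arrays. Rnf149 was 12.7-fold higher in epididymis than in SVF (3.49 and 3.83) and 20.3-fold higher than in testis (4.37 and 4.32).

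Rnf43, which removes Wnt receptors from the cell surface, was the third PA-TM ligase highest in epididymis, at 3.57 and 2.27 over SVF (2.92 ± 0.92) and 2.73 and 1.84 over testis (2.29 ± 0.62). Rnf130, the goliath homologue, was highest in SVF instead, with -2.96 and -3.41 for testis over SVF (9.12-fold) and -1.38 and -2.10 for epididymis over SVF (3.34-fold). Rnf13 and Rnf167, ligases of endosomes and lysosomes, stayed within 2-fold on all 6 arrays. Rnf150 gave opposite signs on the 2 arrays in all 3 comparisons and has no usable direction.

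**Figure D3:**
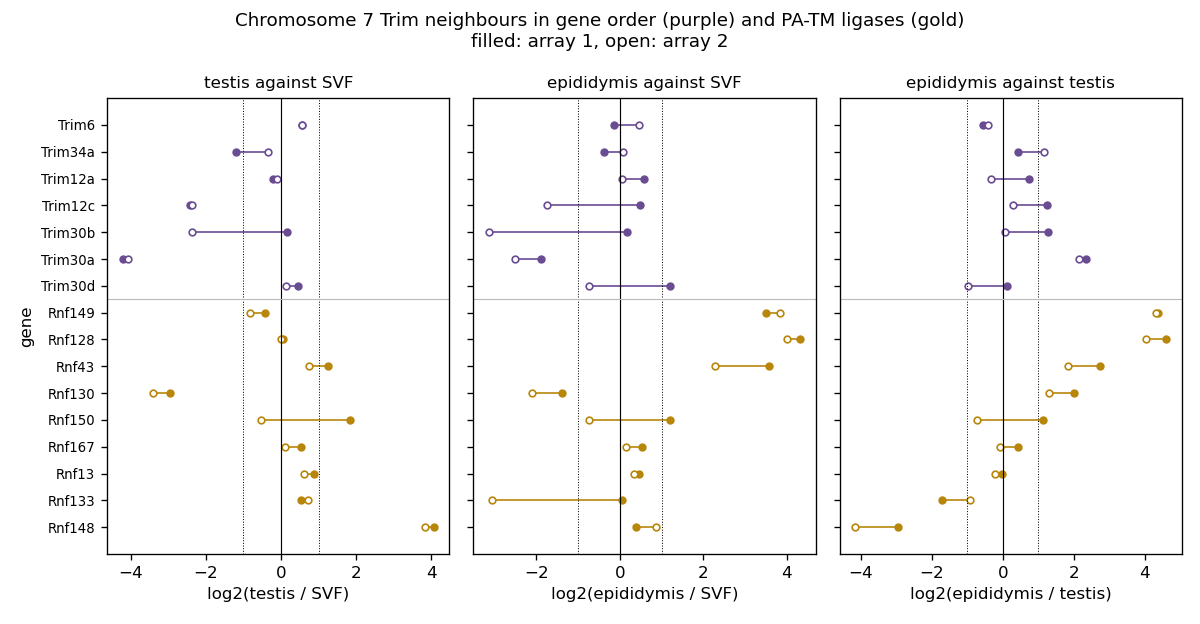
Log2 ratios of 7 neighbouring Trim genes of chromosome 7 in gene order (purple) and of the 9 PA-TM ligases (gold), with array 1 filled and array 2 open. Trim30a is lowest of the neighbours on both arrays of testis over SVF, whereas Trim30b lies below it on array 2 of epididymis over SVF. Among the PA-TM ligases, Rnf149 and Rnf128 lie at the high end and Rnf148 at the low end of epididymis over testis, and Rnf130 is lowest by the mean in both comparisons with SVF.

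Trim2, a ligase with NHL repeats known for axon maintenance, had the largest difference of any member between epididymis and testis, at 7.12 and 4.68, a 59.8-fold difference whose arrays differed widely (5.90 ± 1.72). It was lowest in testis, at -3.52 and -4.47 against SVF, and 2.63-fold higher in epididymis than in SVF (1.41 and 1.38). Trim29, a TRIM gene of basal epithelia, stood at 1.39 and 2.75 over SVF and 2.21 and 2.72 over testis. Rnf11, a small RING protein of membrane traffic and inflammatory signalling, stood at 1.19 and 1.33 over SVF and 2.24 and 2.43 over testis. Epithelial duct markers were all higher in epididymis, with log2 ratios of 3.48 to 8.57 over SVF, and their part in these values was not tested. Among the other 3 measured genes of the epithelial TRIM list, Trim15, Trim31 and Trim50, none was called.

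Rnf113a1 and Rnf113a2 encode near relatives of a spliceosomal RING protein, the first on the X chromosome and the second on chromosome 12. Rnf113a1 was highest in epididymis, at 1.63 and 1.32 over SVF and 1.65 and 2.13 over testis, and testis over SVF gave -1.32 and -0.82. Rnf113a2 was higher in testis than in SVF, at 2.08 and 1.33, and was not called in the comparisons with epididymis. Because their sequences are alike and probe sequences were not used here, a share of cross-hybridisation between them was not tested.

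Genes highest in SVF were Trim30a, Rnf130, Trim10 and Trim25. Sequences are shown for 3 antiviral TRIM genes whose upstream 250 bases hold the core of the interferon-stimulated response element. The motif searched was GAAA, any 2 bases and GAAA again, or on the other strand TTTC, any 2 bases and TTTC, with both strands read. This core was found in 6 of 128 member promoters (4.69%) and in 2.98% of the 32851 promoters of the RefSeq table (GRCm38.p6). Those 32851 promoters were not limited to genes named on the array. The other 3 members with the core were Rnf121, Rnf146 and Rnf182. Trim30a has another promoter without the core, which is not shown. The core was also absent upstream of the antiviral TRIM genes Trim6, Trim12a, Trim21, Trim25, Trim30b, Trim34a and Trim56. Each line gives the 120 bases before the start, 5′ to 3′ on the gene's minus strand, with the core in capitals.
Trim30a, chr7:104465194-104465313: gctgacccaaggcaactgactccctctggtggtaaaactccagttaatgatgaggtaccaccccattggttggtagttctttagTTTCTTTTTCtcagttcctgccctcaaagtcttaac
Trim30d, chr7:104507850-104507969: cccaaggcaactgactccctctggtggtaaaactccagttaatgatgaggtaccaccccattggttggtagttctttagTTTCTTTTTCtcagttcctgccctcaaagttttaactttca
Trim12c, chr7:104353350-104353469: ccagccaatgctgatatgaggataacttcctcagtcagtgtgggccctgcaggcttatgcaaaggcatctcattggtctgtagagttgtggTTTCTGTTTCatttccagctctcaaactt

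The core starts 36 bases upstream in Trim30a, 41 in Trim30d and 29 in Trim12c. Trim30a and Trim30d shared an unbroken run of 118 bases around it, whereas Trim30a and Trim12c shared no run longer than 8. A match of letters is a description and does not show binding. The other motif searched, the cyclic AMP response element TGACGTCA, was found upstream of Rnf7 and Trim52, in 1.56% of member promoters and 1.55% of all.

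Trim30a, an interferon-induced TRIM gene that restrains Toll-like receptor signalling, had -4.22 and -4.07 for testis over SVF (17.7-fold higher in SVF) and -1.90 and -2.51 for epididymis over SVF (4.61-fold). It was also 4.74-fold higher in epididymis than in testis (2.35 and 2.14), so all 3 tissues were ordered. Trim30d, with the shared upstream run, had 0.46 and 0.13 for testis over SVF and was not called in any comparison. Trim12c, a relative of the retrovirus restriction factor Trim5, had -2.42 and -2.36 for testis over SVF, but 0.49 and -1.74 for epididymis over SVF. Trim30b changed sign between arrays in both comparisons with SVF, at 0.17 and -2.36 for testis over SVF. These genes lie within a run of 7 measured Trim genes on chromosome 7, ordered Trim6, Trim34a, Trim12a, Trim12c, Trim30b, Trim30a and Trim30d, and the calls in the run belonged to Trim30a and Trim12c. The near-identical copies may share signal on the array, which was not tested.

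Of the 12 measured antiviral and interferon-linked TRIM genes, SVF exceeded testis for 4 and testis exceeded SVF for 0, where 16% and 20.7% of all named genes were called so. The median log2 ratio of testis over SVF in this list was -0.93. Besides Trim30a and Trim12c the 4 genes were Trim25, which activates RIG-I by ubiquitination, at -2.35 and -2.33, and Trim21, the cytosolic antibody receptor, at -2.10 and -2.63. Against epididymis, Trim25 remained 3.51-fold higher in SVF (-1.85 and -1.77 for epididymis over SVF), whereas Trim21 gave 0.05 and -0.18. Trim21 was 5.81-fold higher in epididymis than in testis (2.11 and 2.97), and Trim56, an interferon-linked ligase, was 2.42-fold higher there (1.40 and 1.14). Trim14, Trim65, Trim6 and Trim12a stayed within 2-fold on all 6 arrays.

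A list of 20 measured interferon-induced genes without Rnf or Trim symbols had 15 genes lower in testis than in SVF (median log2 ratio -2.79). In the same list 13 were lower in epididymis than in SVF (median -1.85) and 11 higher in epididymis than in testis (median 1.20). None was called the other way. Of all named genes, 16%, 8.68% and 14.3% were called so, in the same order. Irf7, the interferon regulatory factor, stood at -4.45 and -4.42 for testis over SVF. Macrophage markers moved in the same direction, with 7 of 7 higher in SVF than in either organ and log2 ratios of -5.92 to -1.66 for testis over SVF and of -4.74 to -2.14 for epididymis over SVF. The part of macrophages in the TRIM values was not tested.

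Trim10, which is needed for terminal erythroid differentiation, was 5.93-fold higher in SVF than in testis (-2.53 and -2.60) and 2.51-fold higher than in epididymis (-1.30 and -1.35 for epididymis over SVF). Of 5 measured erythroid markers, 3 were higher in SVF in each of these comparisons and 1 was lower, with log2 ratios of -2.70 to 4.80 and -3.32 to 1.71, and their part in the Trim10 value was not tested. Trim10 lies between Trim15 and Trim31 on chromosome 17, and neither of these was called.

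Testis was the lowest tissue for 8 members (6.5%, against 7.97% of all named genes), namely Trim2, Trim30a, Rnf130, Trim8, Trim10, Trim21, Trim68 and Rnf31. Trim8, a regulator of cytokine signalling through SOCS1, stood at -2.61 and -3.10 against SVF and was 3.85-fold higher in epididymis than in testis (2.26 and 1.63). Trim68 stood at -1.40 and -1.31 against SVF and at 2.26 and 1.70 for epididymis over testis. Among members called lower in testis than in SVF alone were Trim3, an NHL-repeat ligase of neurons (-1.60 and -2.20), Rnf215 (-1.53 and -1.96), Rnf135, a partner of RIG-I (-1.10 and -1.81), and Rnf4, which targets SUMO-modified proteins (-1.27 and -1.08). The other NHL-repeat genes besides Trim2 and Trim3 were not called: Trim32 had 0.60 and 0.43 for testis over SVF, and Trim71, a stem cell ligase, had 1.01 and 0.90.

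Members higher in testis than in SVF without a call against epididymis were Rnf6, Rnf32, Trim23, Rnf10, Rnf113a2, Rnf7 and Rnf17. Rnf6, a ligase that modifies the androgen receptor, was 7.83-fold higher in testis than in SVF (3.00 and 2.93) and 3.92-fold higher in epididymis than in SVF (1.17 and 2.77), with SVF lowest. Epididymis over testis gave -0.83 and -0.93 for Rnf6, just inside the threshold. Trim23, which carries an ARF domain, stood at 1.79 and 1.74 against SVF, and Rnf7, a RING subunit of cullin ligases, at 1.65 and 1.16. Called in epididymis against SVF alone were Rnf20, which ubiquitinates histone H2B (1.94 and 1.25), and Rnf41, a ligase of ErbB3 receptors (1.72 and 1.23), both higher in epididymis. Called in epididymis against testis alone, Rnf112 had -1.49 and -1.46 and was higher in testis.

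Of 8 measured ligases of chromatin and DNA damage, Rnf138, Rnf4 and Rnf20 account for all calls. Rnf2, the catalytic subunit of Polycomb complex 1, had -0.15 and -0.21 for testis over SVF, and the break-signalling ligases Rnf8 and Rnf168 had 0.59 and 1.22, and 0.76 and 0.39. None of the 3 measured TRIM genes of striated muscle, Trim54, Trim55 and Trim63, was called, with means between -0.63 and 0.94. In the same RNAs 5 of 8 striated muscle markers were higher in epididymis than in SVF and none was lower, with log2 ratios of -0.36 to 5.02. Of the 6 measured COS-box genes, which bind microtubules, Trim36 was the 1 that was called, and Trim46 had opposite signs on the arrays of every pair, with -1.25 and 2.70 for testis over SVF. Among all named genes, 47.1% were called in at least 1 comparison. Whether these small lists depart from that share was not tested.

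In all, 59 members (48%, against 52.9% of named genes) were called in no comparison. Of these, 29 (23.6% of the members, against 24.6% of named genes) stayed within 2-fold on all 6 arrays. Among them were Rnf13, Rnf14, Rnf146, Rnf167, Rnf185, Trim35, Trim45 and Trim47. These counts rest on the mean over a gene's probes. For Trim7, a probe had -2.35 and -1.82 for testis over SVF, and the other had 0.54 and 0.37. Single probes of Trim9 (1.07 and 1.06) and Rnf157 (1.39 and 1.12) met the rule for epididymis over testis.

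Ligases and enzymes of the same pathway that carry other names were measured on the same arrays. Of 57 measured RING and related ligases without an Rnf or Trim number, testis exceeded SVF for 12 and SVF exceeded testis for 7. The shares of all named genes called so were 20.7% and 16%. Between epididymis and SVF 8 were higher in the former and 5 in the latter, beside 10.2% and 8.68% of all named genes. Between epididymis and testis the counts were 6 and 15, beside 14.3% and 18% of all named genes. The Polycomb gene Bmi1 was 16-fold higher in testis than in SVF (4.27 and 3.72), and Marchf1, a ligase that lowers surface MHC class II, was 15.4-fold higher in SVF (-3.77 and -4.12). Mid2, a COS-box TRIM protein under another name, stood at -1.94 and -2.35. Of 30 measured E1 and E2 enzymes, which activate ubiquitin and hand it to the ligases, 5 were higher in testis and 3 in SVF, and none was called in epididymis against SVF. Ube2t, the E2 of Fanconi anaemia repair, was 17.1-fold higher in testis than in SVF (4.18 and 4.02), and the ISG15-activating enzyme Uba7 was 5.72-fold higher in SVF (-2.42 and -2.61).

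**Figure D4:**
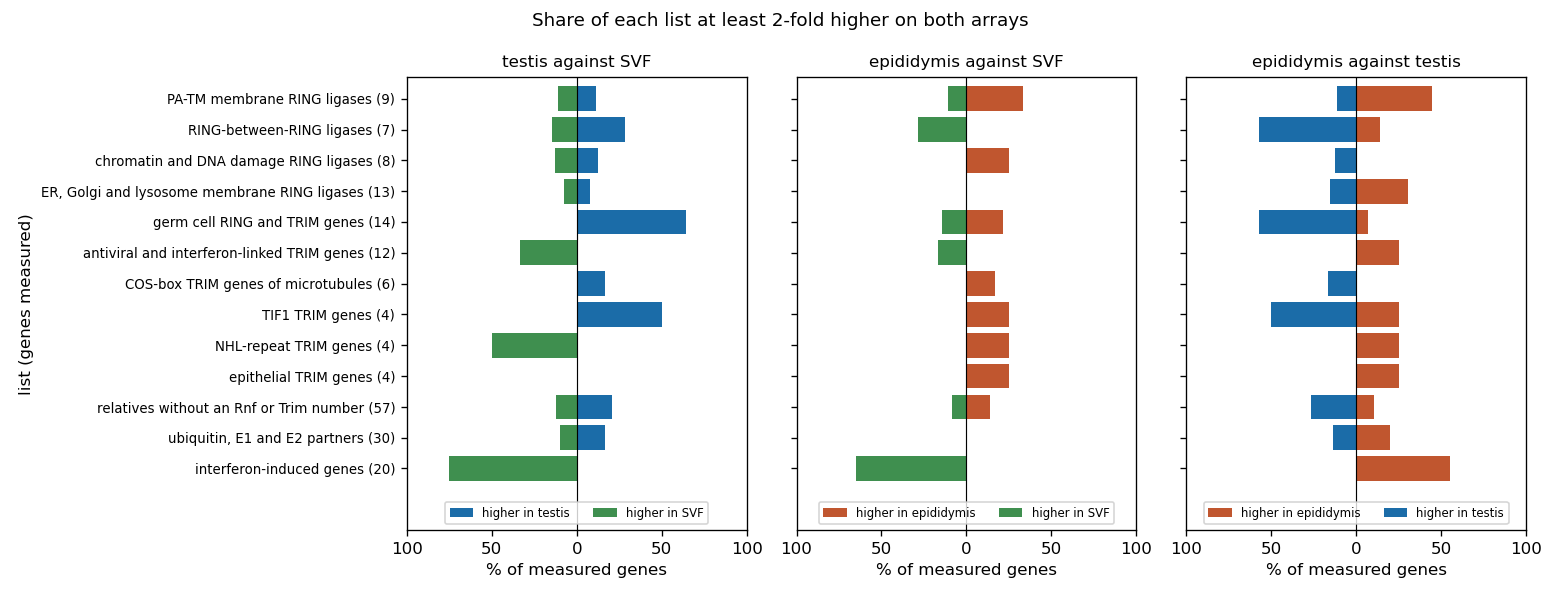
Percent of the measured genes of each list that were at least 2-fold higher on both arrays in the first tissue (bars to the right) or in the second (bars to the left), with the number measured beside each name. The germ cell list reaches toward testis with 9 of 14 genes over SVF, and the interferon-induced genes reach toward SVF with 15 of 20.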

How the data were processed

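The table gives 1 log2 ratio per probe and array for 25344 probes on 6 arrays. How the authors normalized and background-corrected these deposited log2 values, and their base and direction, was not given in the sources used here. Of 21112 annotated probes, 20914 were named, members by their annotated symbol and other genes through the gene ID or symbol of the RefSeq table. A gene's value is the mean over its probes. Spot intensities were not used here, so which genes were above background is not known, and precision is limited by the number of arrays. Members, gene lists and the 2-fold rule were chosen with earlier results of these data known. Named genes were the 8 highest and 8 lowest members per comparison, up to 4 of each list, and members highest in 1 tissue; further members were named after their values were seen. The rule was also run on simulated dye swaps, with the same independent noise for every probe of a comparison. Dye effects of single genes and differences between animals were left out, so this run cannot show how often the rule errs here. Calculations used Python 3.11.15 and pandas 2.3.3. Alternatives were median centring, a least-squares loop estimate, other size rules, single probes, complete genes, natural logarithms and leaving out each array. Leaving out members with an SD above 1 between arrays was added after the values were seen.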

Additional observations from a re-analysis of the deposited data

Results flagged for a closer look

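For 3 genes the 2 organs differed from SVF in opposite directions, each on both arrays. Trim2 stood at -3.99 for testis over SVF and 1.39 for epididymis over SVF. Trim59 stood at 1.72 and -1.51, and Trim69 at 2.96 and -1.75, in the same order. Both comparisons share the SVF RNA, and the difference between them was not tested. The direct log2 ratios of epididymis over testis were 5.90, -3.27 and -4.10 for Trim2, Trim59 and Trim69.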

How the results depend on the processing

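All 45, 23 and 47 member calls in testis against SVF, epididymis against SVF and epididymis against testis were kept after median centring and by the loop estimate. The loop estimate applies 2-fold to 1 combined value, a looser rule that added calls. For testis against SVF it gave 37 higher in testis and 20 in SVF, in place of 29 and 16. For epididymis against SVF it gave 19 higher in epididymis and 13 in SVF, in place of 14 and 9. At 4-fold on both arrays the counts fell to 19 higher in testis and 8 in SVF for testis against SVF, 5 and 0 for epididymis and SVF, and 8 and 15 for epididymis and testis. On the mean alone 14 members were higher in SVF than in epididymis. Without either array of epididymis against SVF, counts were 19 to 27 higher in epididymis and 13 to 20 higher in SVF, since the remaining array alone decides, and the median over members was 0.01 to 0.27. In epididymis against testis that median was -0.24 to 0.03 and so has no settled sign. The median of testis over SVF was 0.20 by the loop estimate and 0.43 as natural logarithms, the latter by construction. No probe value was missing, so restricting to complete genes changed nothing. No paired analysis was possible because each tissue has 1 RNA sample. Depth does not apply to array ratios, and signals near background could not be recognised.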
